A study of Mus musculus with 10 samples.

Results

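The genes described here are 9 amino acid transporters (Slc7a5, Slc3a2, Slc1a5, Slc1a4, Slc7a1, Slc7a6, Slc7a11, Slc38a1 and Slc38a2) and Il4i1, which encodes a secreted amino acid oxidase. They were chosen by name, with earlier results of these data known. All 10 were found among the 55421 genes of the count table, and all 10 were among the 16596 genes that passed a filter on low counts. RNA was sequenced from spleens of 8 to 10 week old C57BL/6 mice, 10 days after immunization, from germinal center B cells taken with beads for the lectin PNA. Each sample was a fraction labelled CC or CB, from mice labelled Pbrm1-/- (HOMO) or Pbrm1+/+ (WT), which gave 2 HOMO CC, 3 WT CC, 2 HOMO CB and 3 WT CB libraries. Pbrm1 encodes the bromodomain protein that defines PBAF, one of the SWI/SNF chromatin remodellers. What CB and CC stand for, in which cells and by which allele Pbrm1 was deleted, and whether libraries came from separate mice are not given in the labels. The p-values below therefore reflect how far these libraries differ among themselves, possibly for technical reasons alone. HOMO libraries are called by their number in the count table, 2 or 3, which differs from the number in their titles.

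Activated B cells import amino acids to build protein and nucleotides and to keep the growth kinase complex mTORC1 active, and the germinal center is where B cells divide, mutate their antibody genes and are selected. Slc3a2 is the heavy chain (CD98) that carries several light chains to the cell surface. Its partners include Slc7a5, which exchanges intracellular glutamine for leucine and other large neutral amino acids, Slc7a6, which exchanges cationic for neutral amino acids, and Slc7a11, which imports cystine in exchange for glutamate. Slc1a5, Slc38a1 and Slc38a2 carry glutamine and small neutral amino acids with sodium, Slc1a4 carries alanine, serine and cysteine, and Slc7a1 carries arginine and other cationic amino acids. Il4i1, first described as a gene that B cells induce on interleukin-4, oxidises phenylalanine and other aromatic amino acids outside the cell and releases hydrogen peroxide and ammonia.

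Total counts were 9954006 to 15514361 in HOMO CC, 13662538 to 27091509 in WT CC, 27034386 to 67625110 in HOMO CB and 26372234 to 61627968 in WT CB libraries. Pbrm1 itself had 150.4 to 177.8 CPM (read counts scaled to library size with TMM factors) in the 4 HOMO libraries, against 238.8 to 319 CPM in the 6 WT libraries, so its transcript was lower in HOMO but present. The summed level of 4 light zone markers (Cd83, Cd86, Myc, Nfkbia) was 696.2 to 775.6 CPM in CC, against 312.3 to 372 CPM in CB. The summed level of 4 dark zone markers was 460.2 to 524.2 CPM in CC, against 1037 to 1394 CPM in CB, so light zone markers were higher in CC and dark zone markers in CB. Some libraries stood apart. The 11 macrophage markers, of which at most 2 were at 0 reads in any library, summed to 24.2 and 30.4 CPM in HOMO CC, against 971.7, 243.5 and 51.1 CPM for numbers 1, 2 and 3 of WT CC, and to 10.4 to 21.8 CPM in CB. The 4 erythroid markers summed to at most 1.99 CPM in HOMO libraries, against 41.6 and 8.70 CPM for numbers 1 and 2 of WT CC and no more than 0.562 CPM elsewhere in WT. Both libraries of WT number 3 departed from WT numbers 1 and 2 in how read counts followed the GC content of genes. Across 8802 genes, the rank correlation of a gene's deviation with GC content was 0.152 in WT CC library 3, against 0.431 and 0.552 in WT CC libraries 1 and 2. In CB it was -0.457 in WT library 3, against 0.15 and 0.248 in WT libraries 1 and 2. HOMO libraries had -0.173 and -0.222 in CC and -0.632 and -0.605 in CB.

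Per exon length, the 10 genes spanned a wide range of levels. In RPKM, computed here from the deposited counts and gene lengths, Slc1a5 had the highest mean over the 10 libraries, 65.7 RPKM, with a range of 52.7 to 79.8. Il4i1 came next with 37.2 RPKM but a range of 10.7 to 90.4, and its libraries overlapped those of several transporters below it. Slc38a2 and Slc38a1 followed with means of 32.1 and 22.0 RPKM. The 4 genes Slc3a2, Slc7a5, Slc7a1 and Slc7a6 lay close together, with mean levels of 17.4, 16.4, 15.7 and 12.8 RPKM, and the ranges of neighbours in this order overlapped. Slc1a4 was low at 1.35 RPKM, and Slc7a11 was near the detection limit at 0.0217 RPKM.

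**Figure D1:**
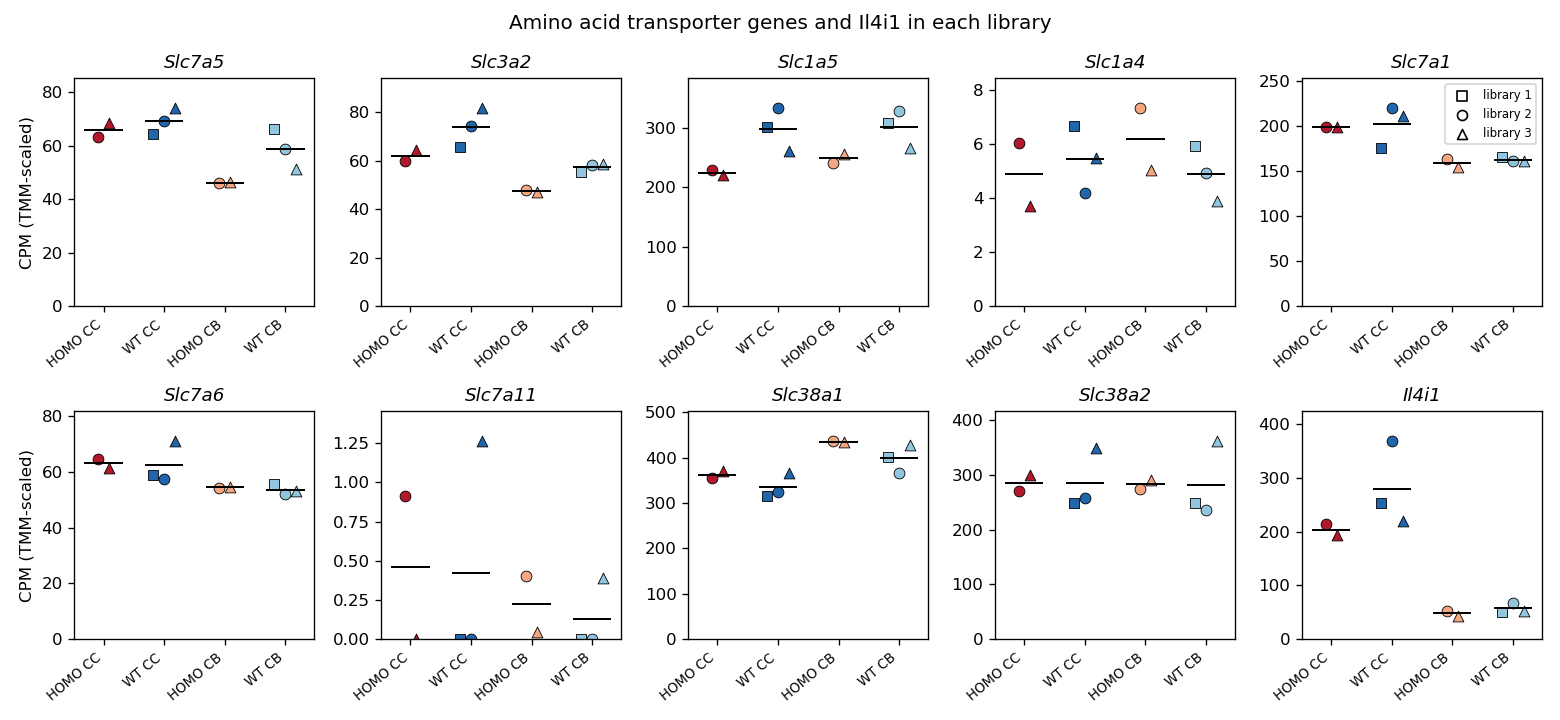
Level of each of the 10 genes in CPM (TMM-scaled, linear axis from 0) in every library, by group; bars are group means and symbols give the library number in the count table. Il4i1 lies between 193.8 and 368.8 CPM in CC and between 43.6 and 68.1 CPM in CB, while the transporters stay within narrower ranges and Slc7a11 is at 0 reads in 5 libraries.

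Il4i1 showed the largest difference between fractions among the 10 genes. HOMO libraries 2 and 3 had 214 and 193.8 CPM in CC, against 53.3 and 43.6 CPM in CB. WT libraries 1, 2 and 3 had 253, 368.8 and 219.3 CPM in CC, against 50.9, 68.1 and 52.9 CPM in CB. Every CC library was above every CB library in both genotypes, as for 28.8% of all genes tested in HOMO and 16.5% in WT (every CC library was below for 33.2% and 17.9%). The fitted log2 change of CC over CB was 2.08 in HOMO (SE 0.23, edgeR quasi-likelihood test, adjusted p = 0.000812, a 4.22-fold rise) and 2.29 in WT (SE 0.19, adjusted p = 4.85e-05, a 4.90-fold rise). The adjustment is that of Benjamini and Hochberg over all genes tested, here and below. Within the WT numbers, which were taken to pair the fractions, the ratio of CC to CB was 4.97, 5.42 and 4.15 for numbers 1, 2 and 3.

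Macrophages and dendritic cells are also known to express Il4i1, and macrophage markers differed between the CC libraries. In WT CC libraries 1, 2 and 3, Il4i1 was 253, 368.8 and 219.3 CPM, where the macrophage sum was 971.7, 243.5 and 51.1 CPM. In HOMO, where the macrophage sum was 24.2 and 30.4 CPM in CC, the rise of Il4i1 was 4.22-fold. Without WT CC libraries 1 and 2 the log2 change in WT was 1.94 (edgeR, adjusted p = 0.00218), and Il4i1 passed as higher in CC under all 28 alternative settings run in WT and all 26 run in HOMO. The 5 dendritic cell markers summed to 34.8 to 51.3 CPM in CC and 31.0 to 39.2 CPM in CB. The part of macrophages or dendritic cells in the level of Il4i1 was not tested. Over the 10 libraries the genes whose log2 CPM followed Il4i1 most closely, among 8880 genes, were Snx11 (Pearson r = 0.997), a sorting nexin, Ciita (r = 0.996), the master regulator of MHC class II genes, and Abcc4 (r = 0.995), an efflux transporter. With the group means taken out, r was 0.93, 0.912 and 0.925 for the same genes, a description over libraries that share the 4 groups.

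Il4i1 lies on the plus strand of chromosome 7 (chr7:44816387-44840809, mm10), and its counts need care, because most of its exons overlap another gene. Of its 4080 exon bases, 3423 (83.9%) also belong to exons of Tbc1d17, a Rab GTPase activator on the opposite strand, 97 to Nup62, a nucleoporin on the same strand, and 82 to Atf5, a transcription factor of the stress response on the opposite strand. Whether reads were counted by strand is not stated, and without strand the reads of Il4i1 and Tbc1d17 could not be told apart in the shared exons. How reads in shared exons were assigned is not stated either. The RPKM of Il4i1 was taken over all 4080 exon bases, so its place by RPKM rests on that setting. Tbc1d17 had 26.1 and 31.4 CPM in HOMO CC, against 21.8 and 24.2 CPM in HOMO CB. WT libraries had 35.8, 39.4 and 35.3 CPM in CC, against 29.6, 33.1 and 32.5 CPM in CB. Its log2 change of CC over CB was 0.32 in HOMO (SE 0.14, edgeR adjusted p = 0.226) and 0.21 in WT (SE 0.11, adjusted p = 0.181), so the overlapping gene did not pass the test in either genotype.

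**Figure D2:**
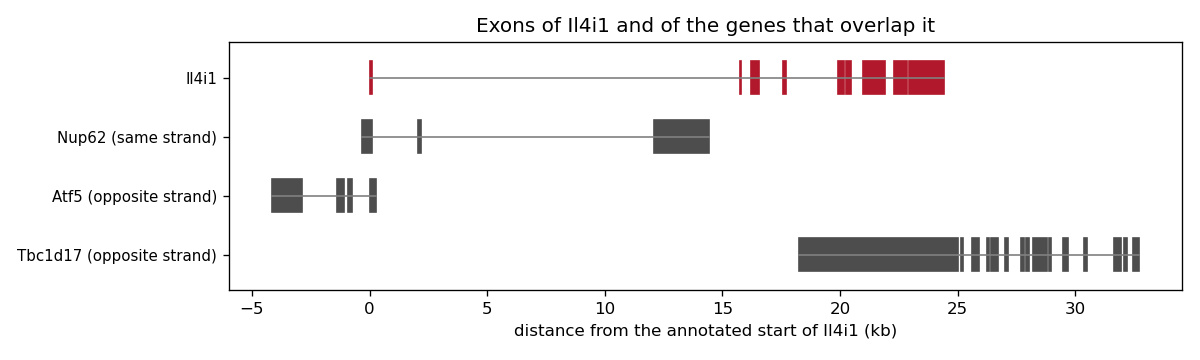
Exons (boxes) of Il4i1 and of the 3 genes that overlap it, against distance from the annotated start of Il4i1 in kilobases, drawn to scale from GENCODE M21. The last exons of Il4i1 lie within the long last exon block of Tbc1d17, and Nup62 and Atf5 share only its first exon.

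RefSeq places a start of Il4i1 inside the gene, and the 250 bases before it are shown because Il4i1 differed most between fractions; the counts are per gene and do not tell which start was used. This window (chr7:44836038-44836287, plus strand, RefSeq GRCm38.p6) falls in an intron of the longer Il4i1 transcripts and in the exon block of Tbc1d17.
Il4i1: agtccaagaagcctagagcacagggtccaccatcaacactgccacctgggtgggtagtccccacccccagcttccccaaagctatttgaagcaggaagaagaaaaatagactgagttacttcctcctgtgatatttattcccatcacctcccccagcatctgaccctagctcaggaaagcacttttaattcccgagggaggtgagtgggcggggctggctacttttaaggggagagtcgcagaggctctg
Promoter windows of 300 bases (250 before and 50 after a RefSeq start) were found for 7 of the 10 genes, 9 windows in all, and were searched on both strands for 5 motifs. These were the E-box of MYC (CACGTG), the element bound by ATF4 with C/EBP factors (TGATGNAA), the GAS element of STAT factors (TTCNNNGAA), the STAT6-type element, which has a wider gap, and the kappaB motif by its usual consensus. The Il4i1 window held none of them. Of 32851 such windows of all genes, 7.15% held the E-box, 3.97% the ATF4 element, 8.3% the GAS element, 6.95% the STAT6-type element and 8.46% the kappaB motif.

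Slc3a2 and Slc7a5, the chains of the CD98 and LAT1 exchanger, each passed between fractions in 1 genotype. Slc3a2, the heavy chain, had 59.8 and 64.5 CPM in HOMO CC, against 48.2 and 47.3 CPM in HOMO CB. For WT the values were 65.6, 74.5 and 81.8 CPM in CC, against 55.5, 58.4 and 58.5 CPM in CB. The CC and CB libraries did not overlap in either genotype, with CC higher, as for 28.8% of all genes tested in HOMO and 16.5% in WT. Its log2 change was 0.38 in HOMO (SE 0.12, edgeR adjusted p = 0.0968) and 0.36 in WT (SE 0.097, adjusted p = 0.0203), so Slc3a2 rose in WT and did not pass in HOMO. The WT call was lost without WT CB library 1, WT CB library 2 or WT CC library 2 (adjusted p = 0.0868, 0.0522 and 0.0561).

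Slc7a5, the leucine carrying light chain, had 63.4 and 68.3 CPM in HOMO CC, against 46.0 and 46.5 CPM in HOMO CB. The WT samples gave 64.4, 69.3 and 74.1 CPM in CC, against 66.2, 58.7 and 51.3 CPM in CB. The HOMO fractions were well separated, while WT CB library 1 lay above WT CC library 1. Slc7a5 rose in HOMO CC by 0.51 (SE 0.13, edgeR adjusted p = 0.0478), close to the threshold, while WT gave 0.24 (SE 0.11, adjusted p = 0.131). The HOMO call was lost without any 1 of the 4 HOMO libraries (adjusted p = 0.173 to 0.303) and without library 1 or 2 of WT CC or WT CB (0.0513 to 0.0644). The WT ratio of CC to CB was 0.973, 1.18 and 1.44 for numbers 1, 2 and 3. The difference of the fraction change between genotypes was 0.27 on the log2 scale (95% interval -0.10 to 0.64, adjusted p = 1), so the change was not shown to differ between HOMO and WT.

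Per length, the light chain Slc7a5 and the heavy chain Slc3a2 had nearly equal levels in every library. The ratio of their RPKM was 1.01 in both HOMO CC libraries and 0.935, 0.886 and 0.862 in WT CC libraries, against 0.908 and 0.936 in HOMO CB and 1.14, 0.957 and 0.835 in WT CB. With Slc7a6 added to Slc7a5, the ratio of light to heavy chains was 1.48 to 1.84 in CC and 1.54 to 1.91 in CB. The log2 CPM of Slc7a5 and Slc3a2 correlated with r = 0.864 over the 10 libraries but with r = 0.318 after the group means were taken out, a description over libraries that share the 4 groups. The genes that followed Slc7a5 most closely among 8880 genes were Isyna1 (r = 0.963), which makes inositol phosphate, Apex1 (r = 0.954), a base excision repair nuclease, and Nob1 (r = 0.943), a ribosome maturation nuclease.

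The cationic amino acid carriers also had positive log2 changes of CC over CB in both genotypes. Slc7a1, the arginine importer, had 199 and 198.5 CPM in HOMO CC, against 162.9 and 154.2 CPM in HOMO CB. WT libraries measured 175.8, 219.8 and 210.8 CPM in CC, against 165.3, 161 and 161.4 CPM in CB. Every CC library was above every CB library, and WT CC library 1 was the closest to CB. Slc7a1 rose in WT by 0.31 (SE 0.094, edgeR adjusted p = 0.0328), while HOMO gave 0.33 (SE 0.12, adjusted p = 0.139). The WT call held under 16 of 28 alternatives and was lost without WT CC library 2 (0.25, adjusted p = 0.116), WT CB library 1 or 2 (0.0909 and 0.0875) or any 1 of the 4 HOMO libraries (0.0653 to 0.0745). Slc7a6, the y+LAT2 light chain, had 64.6 and 61.5 CPM in HOMO CC, against 54.3 and 54.7 CPM in HOMO CB. Levels in WT were 58.7, 57.5 and 71.0 CPM in CC, against 55.5, 51.9 and 53.0 CPM in CB. The fractions did not overlap for Slc7a1 or Slc7a6, with CC higher, as for 28.8% of all genes tested in HOMO and 16.5% in WT. The log2 changes of Slc7a6, 0.21 in HOMO (SE 0.12, edgeR adjusted p = 0.395) and 0.22 in WT (SE 0.098, adjusted p = 0.13), did not pass.

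The glutamine carriers did not share one pattern. Slc38a1, a sodium-coupled importer, had 354.6 and 370.3 CPM in HOMO CC, against 436.4 and 433.5 CPM in HOMO CB. WT values were 316, 325 and 366.3 CPM in CC, against 400.8, 365.6 and 427.9 CPM in CB. It was lower in CC in both HOMO libraries and within each WT number, with log2 changes of -0.26 in HOMO (SE 0.11, edgeR adjusted p = 0.222) and -0.25 in WT (SE 0.091, adjusted p = 0.0734). With the WT number as a replicate block the WT value was -0.25 at an edgeR adjusted p of 0.0102, and so passed. That fit called 35.4% of all genes, against 23.9% without the block, and with the GC content offset added to the block Slc38a1 did not pass. Slc1a5, the glutamine exchanger ASCT2, had 228.3 and 219.9 CPM in HOMO CC, against 240.5 and 256.2 CPM in HOMO CB. In the WT mice it had 300.8, 333.1 and 260.4 CPM in CC, against 307.9, 328 and 266.4 CPM in CB. The log2 change of Slc1a5 was -0.15 in HOMO (95% interval -0.44 to 0.15, adjusted p = 0.63) and -0.01 in WT (95% interval -0.25 to 0.23, adjusted p = 0.953).

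Slc38a2, a relative of Slc38a1 that cells induce when amino acids are short, had 271.3 and 299.9 CPM in HOMO CC, against 274.6 and 290.7 CPM in HOMO CB. Among WT libraries it had 248.1, 257.5 and 348.5 CPM in CC, against 249.4, 235.6 and 361.7 CPM in CB. Its log2 change was 0.02 in HOMO (95% interval -0.44 to 0.47) and 0.01 in WT (95% interval -0.36 to 0.38), and both libraries of WT number 3 were well above the other WT libraries. With group means taken out, Slc38a1 and Slc38a2 moved together over the 10 libraries (r = 0.921), and Slc1a5 moved against them (r = -0.868 with Slc38a1 and -0.874 with Slc38a2). The GC content of the longest transcript was 44.7% for Slc38a2, 48.5% for Slc38a1 and 56.7% for Slc1a5, and the libraries differ in how counts follow GC content, whose part in these correlations was not tested.

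The remaining transporters were scarce. Slc1a4 had 6.04 and 3.70 CPM in HOMO CC, against 7.32 and 5.03 CPM in HOMO CB. WT mice gave 6.65, 4.19 and 5.48 CPM in CC, against 5.91, 4.91 and 3.88 CPM in CB. The groups overlapped, and the 95% intervals of its log2 change, -1.07 to 0.42 in HOMO and -0.45 to 0.77 in WT, leave changes of that size in either direction undetectable here. Slc7a11, the cystine importer, had 15 and 0 reads in HOMO CC libraries 2 and 3, against 11 and 3 reads in HOMO CB libraries 2 and 3. The WT levels were 0, 0 and 18 reads in CC libraries 1, 2 and 3, against 0, 0 and 25 reads in CB. A count of 0 allows up to 0.123 CPM in library 1 and 0.155 CPM in library 2 of WT CC (3 counts per library, counting error only). The 7 neutrophil markers summed to 126.1 and 14.4 CPM in HOMO CC libraries 2 and 3 and to 0.246, 0 and 14.5 CPM for numbers 1, 2 and 3 of WT CC. In CB they summed to 158.5 and 7.55 CPM in HOMO libraries 2 and 3 and to 0.946, 0.0344 and 14.2 CPM in WT libraries 1, 2 and 3. The WT libraries with Slc7a11 reads were thus those with the higher neutrophil sums, while HOMO CC library 3 had a sum of 14.4 CPM and no Slc7a11 read, and the part of these cells in the level of Slc7a11 was not tested. With 5 of 10 libraries at 0 reads, no difference in Slc7a11 was detectable. Tmem62 (r = 0.877), Wdr45b (r = 0.869) and Smad2 (r = 0.849) followed it most closely among 8881 genes. With so few reads, these correlations say little about shared expression.

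Slc7a11 and Slc1a4 are known targets of ATF4, the transcription factor of the amino acid starvation response, and their starts were the ones among the 9 windows that held its element, TGATGNAA. They are shown for this reason, with the elements in capitals on either strand. In Slc7a11 a pair of elements begins 66 and 47 bases before the RefSeq start, and a GAS element, also in capitals, begins 183 bases before it (chr3:50443614-50443863, minus strand, GRCm38.p6). In Slc1a4 the element spans the RefSeq start (chr11:20332704-20332763, minus strand, GRCm38.p6).
Slc7a11: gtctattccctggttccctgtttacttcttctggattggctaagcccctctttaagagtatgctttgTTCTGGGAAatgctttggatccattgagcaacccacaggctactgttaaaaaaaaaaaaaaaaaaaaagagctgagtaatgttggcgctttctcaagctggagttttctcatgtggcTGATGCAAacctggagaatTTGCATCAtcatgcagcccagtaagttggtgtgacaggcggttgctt
Slc1a4: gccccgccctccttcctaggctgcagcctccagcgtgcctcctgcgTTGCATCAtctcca
These were the least abundant of the 10 genes in every group. A match in these letters is a description of the window, and a GAS element was also found once in the second RefSeq window of Slc7a1.

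Between fractions, 2 of 10 genes passed in HOMO (Il4i1 and Slc7a5, both higher in CC), where 5.45% of all genes tested passed, 2.46% higher and 2.98% lower. In WT 3 of 10 passed (Il4i1, Slc3a2 and Slc7a1, all higher in CC), where 23.9% of all genes tested passed, 11.6% higher and 12.3% lower. The WT share among the 10 genes was thus near the background. The median log2 change of the 10 genes was 0.27 in HOMO, against -0.01 over all genes tested, and 0.23 in WT, against 0.01 over all genes tested. The difference of the fraction change between genotypes passed for 0 of 10 genes and for 0% of all genes tested by edgeR, with 0 of the 10 at an unadjusted p under 0.05, and 0 of 10 by DESeq2 also. Without both libraries of WT number 3, 5 of the 10 genes passed in HOMO (23% of all genes) and 4 in WT (46%), and the difference between genotypes passed for Slc7a5 (log2 0.41, edgeR adjusted p = 0.0428, 8.98% of all genes).

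**Figure D3:**
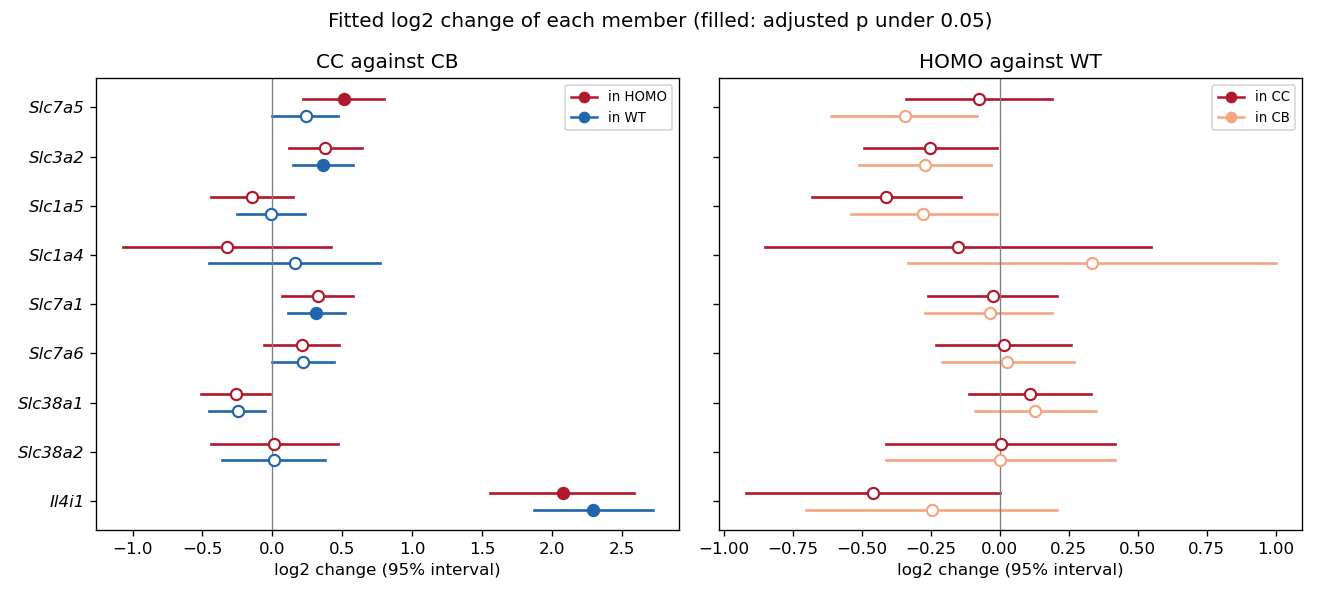
Fitted log2 change of 9 of the genes with its 95% interval, for CC against CB on the left (HOMO above WT) and for HOMO against WT on the right (CC above CB); Slc7a11 is left out because 5 of its 10 libraries hold 0 reads. Filled points have an adjusted p under 0.05, and these are Il4i1 and Slc7a5 in HOMO and Il4i1, Slc3a2 and Slc7a1 in WT on the left, and none on the right.

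Lower levels of several transporters in HOMO did not pass the test across genes. Between HOMO and WT, edgeR called 0 of 10 in CC, where 0% of all genes passed, and 0 of 10 in CB, where 0.0241% passed. DESeq2 called 1 of 10 in CC and 0 in CB, and limma-voom called 0 in both. At an unadjusted p under 0.05 there were 3 of 10 in CC and 3 of 10 in CB, against 18.9% and 12.5% of all genes tested. In CC these were Slc1a5, Slc3a2 and Il4i1, and in CB they were Slc7a5, Slc3a2 and Slc1a5, all with lower levels in HOMO.

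Slc1a5 averaged 224.1 ± 6.0 CPM in HOMO CC (SD, n = 2) and 298.1 ± 36.4 CPM in WT CC (SD, n = 3). Its HOMO libraries lay below all WT libraries in CC, as did those of 17.4% of all genes tested (16.4% in CB). Its log2 change was -0.41 (SE 0.12, edgeR adjusted p = 0.146) in CC and -0.28 (SE 0.12, adjusted p = 0.392) in CB, where HOMO averaged 248.3 ± 11.1 CPM (SD, n = 2) and WT 300.8 ± 31.4 CPM (SD, n = 3). DESeq2 called it in CC with a log2 change of -0.41 and an adjusted p of 0.0286, alone among the 10 genes. In that comparison DESeq2 called 5.83% of the 13997 genes to which it gave an adjusted p. Slc3a2 averaged 62.1 ± 3.4 CPM in HOMO CC and 73.9 ± 8.1 CPM in WT CC, which is a fitted -0.25 on the log2 scale (SE 0.11, edgeR adjusted p = 0.251). In CB it averaged 47.7 ± 0.6 CPM in HOMO and 57.5 ± 1.7 CPM in WT, which is a fitted -0.27 on the log2 scale (SE 0.11, adjusted p = 0.37).

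Slc7a5 averaged 65.8 ± 3.5 CPM in HOMO CC and 69.3 ± 4.8 CPM in WT CC, with a log2 change of -0.07 (95% interval -0.34 to 0.19). In CB it averaged 46.2 ± 0.4 CPM in HOMO and 58.7 ± 7.4 CPM in WT, which is a fitted -0.34 on the log2 scale (SE 0.12, edgeR adjusted p = 0.323), and both HOMO libraries lay below all 3 WT libraries. Il4i1 averaged 203.9 ± 14.3 CPM in HOMO CC and 280.4 ± 78.4 CPM in WT CC, with a log2 change of -0.46 (95% interval -0.92 to 0.00, adjusted p = 0.261). With no filter on low counts this value was -0.44 at an edgeR adjusted p of 0.0244, in a fit that called 4.49% of all genes. In CB it averaged 48.4 ± 6.8 CPM in HOMO and 57.3 ± 9.4 CPM in WT, with a log2 change of -0.24 (95% interval -0.70 to 0.21).

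For 4 other transporters the fitted differences between HOMO and WT were small. The log2 change was -0.02 in CC and -0.04 in CB for Slc7a1, 0.02 and 0.03 for Slc7a6, 0.11 and 0.13 for Slc38a1, and 0.01 and 0.00 for Slc38a2. The 95% interval of Slc7a1 was -0.26 to 0.21 in CC and -0.27 to 0.19 in CB, within which a small difference could lie. That of Slc38a2 was wider, -0.41 to 0.42 in both fractions, and its WT number 3 libraries stood above numbers 1 and 2. Slc1a4, with few reads, had -0.15 in CC (95% interval -0.85 to 0.55) and 0.33 in CB (95% interval -0.33 to 1), and its groups overlapped.

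These counts of calls rest on WT number 3. Without both of its libraries 3 of the 10 genes passed in CC (31.3% of all genes did) and 5 of 10 in CB (30.4% of all genes did), shares near or somewhat above those of all genes. In CC these were Slc1a5, lower in HOMO (-0.47, edgeR adjusted p = 0.00021), and Slc38a1 and Slc38a2, both higher in HOMO (0.20 and 0.20, adjusted p = 0.0231 and 0.0314). In CB they were Slc7a5 (-0.41, adjusted p = 0.002), Slc1a5 (-0.33, adjusted p = 0.00242) and Slc3a2 (-0.23, adjusted p = 0.0447), all lower in HOMO, and Slc38a1 (0.21, adjusted p = 0.0187) and Slc38a2 (0.25, adjusted p = 0.0101), both higher in HOMO. Leaving out WT CC library 3 alone gave 1 call in CC, Slc1a5 (14.8% of all genes), and leaving out WT CB library 3 alone gave 1 call in CB, Slc7a5 (12.1% of all genes).

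The direction of the difference between HOMO and WT followed the GC content of the genes. Over the 9 genes without Slc7a11, the Spearman correlation of log2 change with GC content was -0.883 in CC and -0.65 in CB, against -0.59 and -0.667 over 8802 genes, a description over genes that share their libraries. For Slc1a5 (56.7% GC) the log2 change of -0.41 in CC and -0.28 in CB stood beside medians of -0.22 and -0.25 over 661 genes within 1 percentage point of its GC content. For Slc3a2 (53.4% GC) the values of -0.25 in CC and -0.27 in CB stood beside medians of -0.11 and -0.16 over 883 such genes. For Slc7a5 (56.3% GC) the value of -0.34 in CB stood beside a median of -0.24 over 712 such genes, and for Il4i1 (59.3% GC) the value of -0.46 in CC stood beside -0.28 over 343 such genes. With an offset for GC content in each library the log2 change of Slc1a5 was -0.18 in CC and -0.04 in CB, and that of Slc3a2 was -0.15 in CC and -0.13 in CB. Under the same offset and without WT number 3, chosen after seeing the data, Slc1a5 was -0.20 in CC (edgeR adjusted p = 0.0228) and -0.03 in CB, and Slc3a2 was -0.03 in CC and -0.02 in CB. Under the offset alone Slc7a5 had log2 changes of 0.13 in CC and -0.12 in CB, and Il4i1 had -0.15 in CC and 0.04 in CB, and none of these passed. Between fractions the medians of genes with like GC content were 0.18 in HOMO and 0.21 in WT for Il4i1, whose own changes were 2.08 and 2.29.

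**Figure D4:**
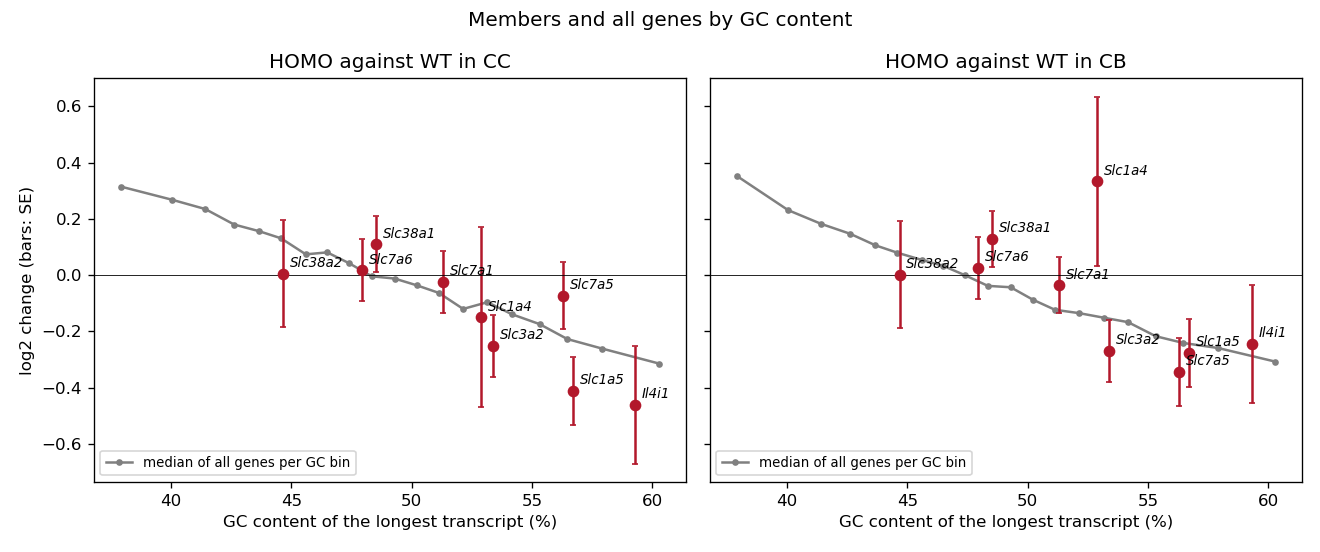
Log2 change of HOMO over WT against the GC content of the longest transcript, in CC on the left and CB on the right; red points are 9 of the genes with SE bars and the grey line joins the medians of all genes in 20 bins of GC content. The genes of low GC content lie near or above 0 and Slc1a5, Slc3a2 and Il4i1 below it, as do the medians of all genes.

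Genes around these transporters were read as lists, each given by its counts. Of 10 tested genes among 24 other plasma membrane amino acid transporters, 0 passed in HOMO by edgeR or DESeq2 (2 had an unadjusted p under 0.05) and 4 rose in WT CC, which is 0% and 40% beside 5.45% and 23.9% of all genes, with medians of 0.15 in HOMO and 0.55 in WT. Slc7a7, the y+LAT1 light chain, rose in WT to 13.9, 16.8 and 16.9 CPM in CC libraries, against 10.6, 11.5 and 11.8 CPM in CB (log2 0.49, edgeR adjusted p = 0.0217). The other 3, Slc7a8 (LAT2), Slc1a3 (a glutamate carrier) and Slc7a2 (an arginine carrier), were low and were highest where the macrophage sum was highest, whose part in these calls was not tested. Slc7a8 had 7.68, 1.61 and 0.351 CPM for numbers 1, 2 and 3 of WT CC, against at most 0.118 CPM in WT CB, and Slc1a3 had 6.20, 2.12 and 1.05 CPM in WT CC, against 0.576 to 0.859 CPM in WT CB. Slc7a2 had 53, 29 and 0 reads in the 3 WT CC libraries and none elsewhere.

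Among 14 tested lysosomal transporters, 1 fell in HOMO CC and 4 rose and 1 fell in WT CC, which is 7.14% and 35.7% beside 5.45% and 23.9% of all genes. Slc36a4, a proline and tryptophan carrier, fell to 15.9 and 13.6 CPM in HOMO CC, against 30.0 and 26.5 CPM in HOMO CB, and to 14.8, 19.2 and 18.7 CPM in WT CC, against 46.6, 44.2 and 35.6 CPM in WT CB (log2 -0.93 and -1.26, edgeR adjusted p = 0.0119 and 0.000226). Those that rose in WT were Slc15a4 (0.32), which carries histidine and peptides out of the endolysosome, Mfsd12 (0.56), a cysteine importer, Slc29a3 (0.44), a nucleoside carrier, and Cln3 (0.47). The list medians were 0.31 in HOMO and 0.28 in WT.

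Of 19 tested genes of the starvation response, 2 fell in HOMO CC, and 4 fell and 1 rose in WT CC. These are 10.5% and 26.3% of the list, beside 5.45% and 23.9% of all genes, so the WT share was near that of all genes. Eif2ak3, which encodes the stress kinase PERK, fell to 168 and 173.4 CPM in HOMO CC, against 335.1 and 345.2 CPM in HOMO CB, and to 133.5, 146.8 and 166.1 CPM in WT CC, against 373.9, 375 and 337.4 CPM in WT CB (log2 -0.995 and -1.28, edgeR adjusted p = 0.000899 and 2.3e-05). Eif2s1, the factor that such kinases phosphorylate, fell in WT by 0.41 (adjusted p = 0.00957), and Ddit4, an inhibitor of mTORC1, rose in WT by 0.79 (adjusted p = 0.0123). In HOMO the other gene that fell was Cebpg, a partner of ATF4 (-0.47, adjusted p = 0.046). Among 36 tested genes of amino acid sensing by mTORC1, 1 fell in HOMO CC, and 4 rose and 4 fell in WT CC. These shares, 2.78% and 22.2%, were not above the 5.45% and 23.9% of all genes. Mtor (0.38) and Rptor (0.51), which encode the kinase and its scaffold, rose in WT, and Sar1b, a leucine sensor, fell in both (-0.76 in HOMO and -0.71 in WT, adjusted p = 0.0193 and 0.00333).

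Of 20 tested genes of glutamine and glutathione use, 1 rose and 1 fell in HOMO CC, and 3 rose and 5 fell in WT CC, which is 10% and 40% beside 5.45% and 23.9% of all genes. Cad, which uses glutamine to start pyrimidine synthesis, rose by 0.74 in HOMO (edgeR adjusted p = 0.00678) and by 0.62 in WT (adjusted p = 0.00221), with 180.8 and 176.2 CPM in HOMO CC, against 103.7 and 109.5 CPM in HOMO CB. Gclc, the catalytic subunit of the enzyme that commits cysteine to glutathione, fell by 0.93 in HOMO (adjusted p = 0.00111) and by 0.94 in WT (adjusted p = 8.7e-05), with 38.3 and 41.7 CPM in HOMO CC, against 75.8 and 76.1 CPM in HOMO CB. Its partner Gclm fell in WT by 0.70 (adjusted p = 0.00837), as did Glud1, glutamate dehydrogenase, by 0.49 (adjusted p = 0.006). Of 13 tested genes that break down tryptophan, phenylalanine and tyrosine or respond through AHR, 0 passed in HOMO by edgeR (2 had an unadjusted p under 0.05, and DESeq2 called 1) and 1 rose in WT, Ido2, at 1.27 CPM in CC and 0.192 CPM in CB, which is 0% and 7.69% of the list where 5.45% and 23.9% of all genes passed. Of 10 tested genes of arginine and branched-chain amino acid use, 1 fell in HOMO, and 1 rose and 1 fell in WT, which is 10% and 20% with the same shares of all genes. They were the subunits of one mitochondrial dehydrogenase, Bckdha, which fell in both (-0.75 in HOMO and -0.68 in WT), and Bckdhb, which rose in WT (1.21).

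Of 10 tested regulators of transporter transcription and surface level, 1 rose in HOMO CC and 4 rose in WT CC. These are 10% and 40% of the list, beside 5.45% and 23.9% of all genes called in either direction. Over all genes tested, 2.46% and 11.6% were called higher. Myc, a transcription factor known to drive Slc7a5 and Slc1a5 in lymphocytes, rose to 69.8 and 68.4 CPM in HOMO CC, against 30.3 and 30.7 CPM in HOMO CB, and to 67.3, 69.6 and 75.8 CPM in WT CC, against 30.3, 33.2 and 33.6 CPM in WT CB (log2 1.18 and 1.13, edgeR adjusted p = 0.000409 and 2.8e-05). Tfeb (0.52) and Tfe3 (0.64), lysosomal regulators, also rose in WT, as did Mitf, which had 3.37, 0.777 and 0 CPM for numbers 1, 2 and 3 of WT CC, in the order of the macrophage sum. Over all genes tested the median log2 change was -0.01 in HOMO and 0.01 in WT. Of the 131 tested genes of the 8 lists, 2 rose and 6 fell in HOMO CC, and 22 rose and 15 fell in WT CC, where 5.45% and 23.9% of all genes passed. Without WT CC libraries 1 and 2, 4 rose and 4 fell in WT, where 4.96% of all genes passed. Between HOMO and WT edgeR called 0 of the 131 in either fraction, with 31 at an unadjusted p under 0.05 in CC and 24 in CB, where 18.9% and 12.5% of all genes were. DESeq2 called 8 of them in CC and 6 in CB, all lower in HOMO. Of the genes to which it gave an adjusted p, it called 5.83% of 13997 in CC and 2.37% of 11752 in CB.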

How the data were processed

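Germinal center B-cell RNA was sequenced after ribosomal RNA depletion, per the labels' protocols. The deposited table gives raw read counts per gene, unnormalized, made with STAR, Subread and featureCounts on mm10, per the submitters' processing notes; the sources used here do not give strand, multimapping and overlap settings. Symbols and exons come from GENCODE M21, in which all 54673 versioned identifiers found had the same coordinates. Groups come from titles. Libraries of a group all differed by more than sampling noise.

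Counts were filtered (filterByExpr, minimum count 10, total 15), scaled by TMM and fitted over 4 groups with edgeR 4.0.16 (R 4.3.3, robust quasi-likelihood F-test, two-sided, Benjamini-Hochberg over 16596 genes, threshold 0.05). The common biological coefficient of variation was 23.1%. Intervals are 95% t intervals of the fit. DESeq2 1.42.0, limma 3.58.1, other scalings, filters, a GC content offset and left-out libraries were alternatives. The steps were also run on simulated counts with the same spread for every gene, no trend with GC content and no library that stood apart. That run therefore does not bear on these features of the data. HOMO numbers differ between table and titles and were not taken to pair the fractions. WT numbers were taken to pair the fractions because same-numbered CC and CB libraries deviated together (r = 0.301, 0.426 and 0.436 over 8805 genes). CB library 1 also deviated with CC library 2 (r = 0.278), and CB library 2 with CC library 1 (r = 0.163). These values set number 3 apart but hardly tell numbers 1 and 2 from each other, and deviations from the mean of 3 libraries are not independent.

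All 10 genes are named, with up to 4 passing genes of smallest p per list and 3 genes most like Il4i1, Slc7a5 and Slc7a11 above 5 CPM. A gene that met this rule is not reported here. The members and the 8 lists were chosen with earlier results of these data known.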

Additional observations from a re-analysis of the deposited data

How the results depend on the processing

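Limits lie in the small groups (2 or 3 libraries), in WT number 3, in the GC content of the libraries and, for Il4i1, in the exons it shares with Tbc1d17. Slc7a11 had at most 25 reads in a library, too few to show a difference. Il4i1 passed between fractions under all 28 alternatives in WT (log2 1.94 to 2.46) and all 26 in HOMO (1.91 to 2.22). Slc3a2 passed in WT under 21 of 28 (0.30 to 0.52), Slc7a1 in WT under 16 of 28 (0.25 to 0.42) and Slc7a5 in HOMO under 13 of 26 (0.44 to 0.57). The cause was not tested for any change named here, except that leaving out libraries lowers the number of samples.

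For CC against CB in HOMO, where 2 of the 10 genes passed (5.45% of all genes), DESeq2 called 4 (12.4%) and limma-voom 1 (4.8%). A fit of the compared groups alone called 6 (30.4%) and the GC content offset 1 (6.75%). The replicate block of the WT number as a random effect, run in limma-voom, called 1 (4.99%). Without WT number 1 or 2 the count was 1, without number 3 it was 5, without WT CC libraries 1 and 2 it was 4, and leaving out 1 library at a time gave 1 to 3. For CC against CB in WT, where 3 passed, the groups alone gave 1, leaving out WT number 1 or 2 gave 1, and leaving out 1 library at a time gave 1 to 4 (1 without WT CB library 1, WT CB library 2 or WT CC library 2). Without WT number 1 or 2, 3.73% and 4.47% of all genes passed in HOMO and 6.32% and 7.62% in WT. Leaving out 1 WT library gave 3.93% to 9.7% of all genes in HOMO and 12.7% to 32.5% in WT, and the groups alone gave 15.6% in WT. With the WT number as a replicate block 4 passed in WT (35.4% of all genes), adding Slc38a1 at -0.246. Together with the GC content offset 4 passed (33.4%), with Slc7a6 in place of Slc38a1. The block changed no other call, except that Slc7a5 did not pass in HOMO under the random block, which was run in limma-voom. In limma-voom with no block Slc7a5 did not pass in HOMO either. Same-numbered HOMO libraries of the table also deviated together across fractions (r = 0.315, 1 independent value with 2 libraries a fraction), which is a hint from the data and not the design. A replicate block of both the WT and HOMO numbers, chosen after seeing the data, called 3 in HOMO, adding Slc3a2 (0.380, edgeR adjusted p = 0.0336), and 4 in WT. Over the whole table it called 1874 genes in HOMO (11.3%), against 904, and 32% of all genes in WT. For HOMO against WT, where 0 passed, leaving out 1 library at a time gave 0 to 1 in each fraction. In CC the fit with no low-count filter called 1 (Il4i1, with 4.49% of all genes), DESeq2 1 (Slc1a5, with 5.83%) and the fit without WT number 3 called 3 (31.3%). In CB the fit without WT number 3 called 5 (30.4%). The difference between genotypes was called for 1 gene of the 10, Slc7a5, without WT number 3 (8.98% of all genes). Chosen after seeing the data, leaving out WT number 3 with the GC content offset called 3 in CC and 1 in CB between genotypes (22.2% and 16.4% of all genes). Between fractions that fit called 7 in HOMO and 6 in WT (19.8% and 44.8%). Leaving out WT numbers 1 and 2 in both fractions, also chosen after seeing the data, left 1 WT library in each fraction, so its calls are not counted here.

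Over the whole table, HOMO against WT called 0 genes in CC and 4 in CB, against 816 and 278 by DESeq2, 1314 and 590 with no filter, and 5035 and 4895 without WT number 3. Between fractions 904 genes were called in HOMO and 3965 in WT, against 3706 and 7404 without WT number 3 and 1366 and 858 without WT CC libraries 1 and 2. Upper-quartile scaling raised the share of calls that were higher in CC to 58.5% in HOMO, against 45.2%, and to 59.5% in WT, against 48.3%.

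The sign changes given here were of values that had not passed. Slc38a2 turned to -0.377 in CB and -0.265 in CC without WT numbers 1 and 2, a fit with 1 WT library in each fraction. Of the other turned values, Slc7a5 in CC without WT number 3 with the GC content offset (0.256) passed. Under the GC content offset HOMO against WT in CC turned to 0.134 for Slc7a5, 0.055 for Slc7a1, -0.010 for Slc7a6 and -0.109 for Slc38a2, and in CB to 0.057 for Slc7a1, 0.044 for Il4i1 and -0.076 for Slc38a2; the difference between genotypes turned to -0.023 for Slc3a2 (-0.024 with the block) and -0.002 for Slc7a1. Slc1a5 in WT between fractions turned to 0.008 (RLE), 0.008 (DESeq2), 0.065 (upper quartile), 0.020 (stricter filter), 0.002 (groups alone) and 0.003 (without WT number 1). Slc38a2 turned to -0.001 in CB between genotypes and -0.015 in WT between fractions with no filter, and to -0.005 in CC and -0.006 in CB with the stricter one. The difference for Slc7a1 turned to -0.003 under upper-quartile scaling. Without WT number 1, HOMO against WT turned to 0.026 for Slc1a4, -0.027 for Slc7a6 and -0.086 for Slc38a2 in CC and -0.082 for Slc38a2 in CB, and the difference to -0.038 for Slc3a2 and -0.092 for Slc7a1. Without WT number 2 the values were 0.040 for Slc7a1, -0.039 for Slc7a6 and -0.063 for Slc38a2 in CC, -0.113 for Slc38a2 in CB and -0.034 for Slc38a2 in WT between fractions. Without WT number 3 they were 0.004 for Slc7a5 and 0.036 for Slc7a1 in CC; with the GC content offset as well, 0.256 and 0.121 in CC, 0.130 for Slc7a1 and 0.088 for Il4i1 in CB, and differences of -0.013 for Slc3a2 and -0.009 for Slc7a1. Without WT CC libraries 1 and 2 they were -0.171 for Slc7a6, -0.016 for Slc38a1 and -0.288 for Slc38a2 in CC, -0.005 for Slc38a2 in CB, and differences of -0.124 for Slc3a2, -0.043 for Slc7a1 and 0.145 for Il4i1. Without WT numbers 1 and 2 they were -0.146 for Slc7a6 and -0.265 for Slc38a2 in CC, -0.377 for Slc38a2 in CB, -0.078 for Slc38a2 in WT between fractions, and differences of -0.060, -0.013 and 0.081 for Slc3a2, Slc7a1 and Il4i1.

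Leaving out 1 library at a time, HOMO against WT in CC ranged from -0.537 to 0.148 for Slc1a4, -0.086 to 0.185 for Slc38a2, -0.116 to 0.040 for Slc7a1, -0.129 to 0.000 for Slc7a5 and -0.039 to 0.128 for Slc7a6. In CB it ranged from -0.113 to 0.222 for Slc38a2 and -0.063 to 0.018 for Slc7a1. Between fractions Slc38a2 ranged from -0.071 to 0.074 in HOMO and -0.147 to 0.233 in WT, and Slc1a4 from -0.013 to 0.321 and Slc1a5 from -0.096 to 0.094 in WT. The difference between genotypes ranged from -0.357 to 0.030 for Il4i1, -0.064 to 0.109 for Slc3a2 and -0.080 to 0.075 for Slc7a1.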
